A study of Mus musculus with 8 samples.

Results

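DNA methylation and its removal are run by a small set of enzymes, and 10 of their genes were read here for the mark that the pathway itself makes, 5-hydroxymethylcytosine (5-hmC), in pro-B cells with and without HDAC7. The genes are Tet1, Tet2 and Tet3, Dnmt1, Dnmt3a, Dnmt3b and Uhrf1, Tdg, and Idh1 and Idh2. They were chosen by name for the roles of their products, not for their values, and are 10 of the 21938 protein-coding genes that GENCODE M21 places on chromosomes 1 to 19, X and Y of mouse build GRCm38. For each gene a window was taken from 5 kb before to 5 kb after the gene body, and every peak of the 4 deposited lists that met it was counted.

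The peaks come from hMeDIP-seq, in which sheared genomic DNA (fragments of about 350 bp, from 1 ug of DNA) is pulled down with an antibody against 5-hmC and sequenced. The cells were pro-B cells (B220+CD43+IgM-) sorted from bone marrow of C57BL/6 mice between 4 and 6 weeks of age. There were 2 libraries from HDAC7-deficient mice, labelled Hdac7 fl/-, in which Hdac7, the gene of a class IIa histone deacetylase, is deleted by a Cre recombinase knocked into Cd79a (mb1-Cre) and therefore active only in the B lineage. The other 2 came from mice labelled wild-type. According to the methods of the study these were Hdac7+/- littermates, so that both groups lack 1 germline copy of Hdac7, and whether they carry the Cre is not stated. The sources used here do not say whether each library stands for 1 mouse or for pooled mice. Peak lists hold no expression values, so neither the identity of the sorted cells nor the loss of HDAC7 could be checked with marker genes.

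In this pathway DNMT3A and DNMT3B write new methyl groups onto cytosines of CpG dinucleotides, and DNMT1, guided by UHRF1 to freshly copied DNA, keeps the pattern through cell division. The TET enzymes oxidise the methyl group, first to 5-hmC and then to 5-formylcytosine and 5-carboxylcytosine, which TDG cuts out so that repair can put back a plain cytosine. The TET reaction needs alpha-ketoglutarate, which IDH1 and IDH2 make from isocitrate. In blood cells TET2 and DNMT3A are known as regulators of differentiation whose loss favours myeloid expansion, and within gene bodies 5-hmC is commonly found over active genes.

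The lists held between 1305200 and 1414862 peaks, which covered between 9.08% and 10.5% of chromosomes 1 to 13. They give positions alone, with no height, score or read count, so the depth is unknown and a covered base says only that the signal passed the limit of the caller. HDAC7-deficient replicate 2 stood apart on chromosomes 14 to 19, where its peaks covered 11.6% of the sequence, against between 8.94% and 10.4% in the other libraries. Of the 10 genes only Uhrf1, on chromosome 17, lies there. On that chromosome the peaks covered 9.52% and 10.6% of the sequence in the wild-type replicates, 9.34% in HDAC7-deficient replicate 1 and 11.9% in HDAC7-deficient replicate 2. Over Hdac7 itself the covered bases were 10594 and 9520 in wild-type, against 7487 and 9964 in HDAC7-deficient cells, so the groups overlapped there. With 2 libraries per genotype an exact two-sided permutation test, which has 6 arrangements of the libraries, cannot give a p below 0.333, so no difference in a single value was called. What is given instead is whether the 2 groups overlap, beside the share of all protein-coding genes with the same pattern.

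The regions of Tet2 that separated the genotypes are shown first, because the study centres on this gene of a 5-hmC-making enzyme. A region is a union of peaks of the 4 lists that share at least 1 bp. A region with peaks from both HDAC7-deficient libraries and from no wild-type one is called gained, and a region with the reverse pattern lost. Of all regions in windows of protein-coding genes 2.82% were gained and 2.49% lost. Tet2 lies on the reverse strand of chromosome 3, and the following stretches are written 5′ to 3′ on the forward strand of GRCm38.p6, in lower case with CpG dinucleotides, the sites of most DNA methylation in mammals, in capitals. Each of the 5 lies in an intron of the principal transcript. The gained region in intron 8 also has its midpoint in the promoter span of another annotated Tet2 start. That span runs from 1000 bp before to 100 bp after a start.
Tet2 gained, intron 8, chr3:133472096-133472235: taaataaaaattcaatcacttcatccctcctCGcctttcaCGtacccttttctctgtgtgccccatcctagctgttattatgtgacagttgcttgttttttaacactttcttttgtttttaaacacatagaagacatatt
Tet2 gained, intron 2, chr3:133505753-133505939: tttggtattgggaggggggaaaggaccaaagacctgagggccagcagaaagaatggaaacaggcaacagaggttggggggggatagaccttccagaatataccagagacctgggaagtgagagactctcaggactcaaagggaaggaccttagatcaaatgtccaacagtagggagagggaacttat
Tet2 gained, intron 2, chr3:133511023-133511178: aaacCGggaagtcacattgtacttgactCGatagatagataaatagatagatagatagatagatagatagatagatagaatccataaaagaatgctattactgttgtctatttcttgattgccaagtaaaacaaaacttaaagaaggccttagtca
Tet2 lost, intron 2, chr3:133491906-133492086: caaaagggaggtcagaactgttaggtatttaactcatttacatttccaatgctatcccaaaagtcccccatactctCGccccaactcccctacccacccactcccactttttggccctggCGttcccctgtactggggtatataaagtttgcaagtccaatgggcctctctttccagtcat
Tet2 lost, intron 2, chr3:133512240-133512539: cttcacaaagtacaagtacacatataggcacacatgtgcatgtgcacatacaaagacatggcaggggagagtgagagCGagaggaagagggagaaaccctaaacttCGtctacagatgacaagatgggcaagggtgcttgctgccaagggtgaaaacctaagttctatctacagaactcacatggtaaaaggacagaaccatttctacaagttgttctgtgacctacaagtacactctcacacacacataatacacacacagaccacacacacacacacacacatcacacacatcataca
The last is the central 300 bp of a region of 375 bp. The 5 stretches hold between 0 and 2 CpG each, and the gained region at chr3:133505753-133505939 holds none. Soft-masked (repeat-annotated) sequence made up 91.7% and 58.1% of the 2 lost regions and between 32.9% and 74.3% of the gained ones, so the kinds overlapped in this.

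A very different stretch is the RefSeq promoter of Tet2, the densest in CpG among the 16 RefSeq promoters of the 10 genes. It holds 57 CpG in 300 bases, above 99.9% of the 32851 mouse promoters in the table, whose median is 7. The 250 bases before the start, on the reverse strand of GRCm38.p6 and with CpG in capitals, were chosen for printing after the values had been seen.
Tet2 promoter, chr3:133544391-133544640: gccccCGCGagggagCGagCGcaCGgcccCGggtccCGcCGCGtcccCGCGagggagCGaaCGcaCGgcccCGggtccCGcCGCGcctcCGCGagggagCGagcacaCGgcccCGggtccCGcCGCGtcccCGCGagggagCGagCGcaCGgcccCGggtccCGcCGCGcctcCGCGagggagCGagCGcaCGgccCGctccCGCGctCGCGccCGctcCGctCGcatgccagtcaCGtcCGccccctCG
The run cCGCGagggagCGa, 14 bases long, occurs 5 times in it. No library had a peak base in this promoter, while 48.5% of all promoters had one in at least 1 library. The RefSeq promoters of Tet1 (17 CpG), Tdg (26 CpG), Idh2 (20 CpG) and Dnmt1 had none either. Sequence with such a repeated run can affect how short reads map, and its part in the absence of peaks at Tet2 was not tested. The Tet2 promoter lies inside the GENCODE gene body, whose principal transcript begins 749 bp downstream of the annotated start used below. Within 1 kb of that annotated start some libraries had peak bases, as given below.

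Of the TET genes, which encode the dioxygenases that make 5-hmC, Tet1 and Tet2 had fewer covered bases in each HDAC7-deficient library than in either wild-type library, a pattern that 16.9% of all protein-coding genes had, and Tet3 did not separate. Values are given for replicate 1 and then replicate 2 of each genotype. In the Tet2 window (chr3:133458679-133550139) peaks covered 7644 and 7626 bases in wild-type, against 6640 and 5693 bases in HDAC7-deficient cells. Both HDAC7-deficient libraries were lower, and the ratio of the means was 0.808 ± 0.0877 (propagated SD, n = 2 per genotype). The number of Tet2 peaks was 50 and 37 in wild-type, against 48 and 40 in HDAC7-deficient cells, which overlapped, at a ratio of 1.01 ± 0.250. The lower cover of Tet2 was therefore not matched by a lower number of peaks. When each library was divided by its own cover of chromosomes 1 to 13, the Tet2 values were 8060 and 7029 against 7079 and 5534, and the groups overlapped, at a ratio of 0.836.

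Tet1, whose product is best known from embryonic stem cells and the germ line, lies at chr10:62804570-62908996 and its window was covered over 10598 and 9961 bases in wild-type, against 9579 and 9528 bases in HDAC7-deficient cells. The HDAC7-deficient values were the lower ones by a small margin, at a ratio of 0.929 ± 0.0409, and after the same scaling the groups overlapped. Its peak counts of 67 and 64 against 72 and 55 overlapped as well. Tet3, at chr6:83362373-83459084, had 14124 and 12516 covered bases in wild-type, against 12365 and 12560 in HDAC7-deficient cells. The lower wild-type library lay between the HDAC7-deficient ones, so the groups overlapped, at a ratio of 0.936 ± 0.0805. Its peak counts were 95 and 71 against 80 and 71.

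**Figure D1:**
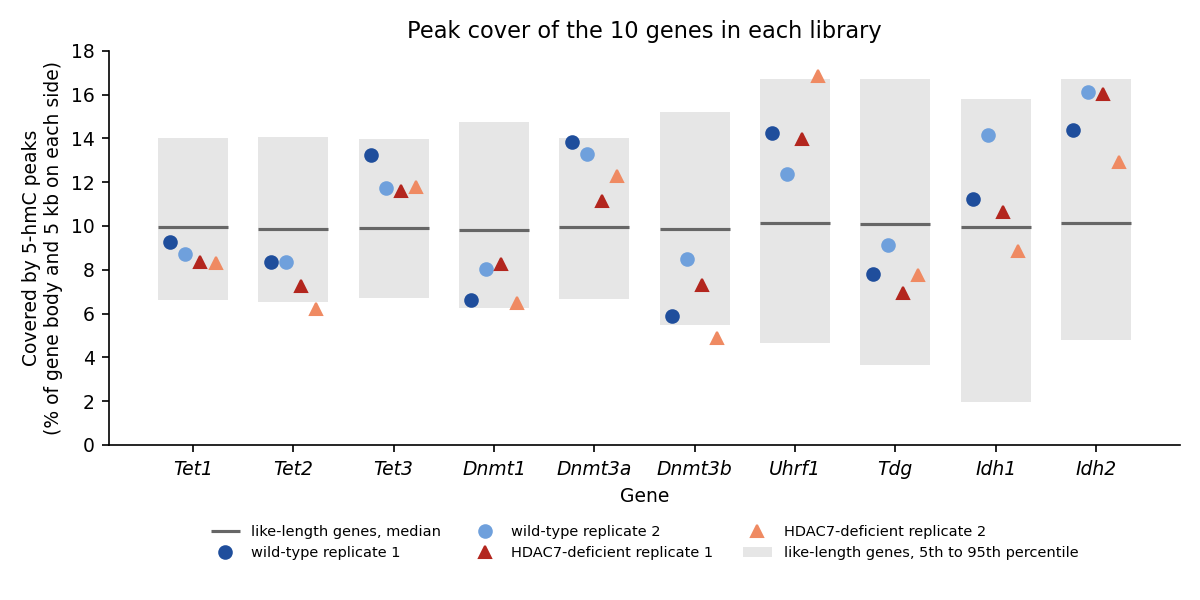
The share of each gene window covered by 5-hmC peaks, in percent, for each of the 10 genes. Circles are the 2 wild-type and triangles the 2 HDAC7-deficient libraries, grey bars span the 5th to 95th percentile of protein-coding genes of like length and grey lines their median. Tet2 sits between 6.22% and 8.36% and Idh2 between 12.9% and 16.1%.

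As the plot of cover by gene shows, the TET genes also differed in the share of their windows that peaks covered. Each gene was ranked among protein-coding genes that were at most 25% shorter or longer. Averaged over the 4 libraries, Tet3 stood at percentile 78.7, Tet1 at 30.2 and Tet2 at 19.1. Within the libraries Tet2 stood between percentiles 4.13 and 35.8, the lowest in HDAC7-deficient replicate 2, so its place below the median held in each of the 4. Tet3 stood between percentiles 67.3 and 90.6. Ranked by peaks per 10 kb, again averaged over the libraries, Tet3 stood at percentile 86.7, Tet1 at 50.2 and Tet2 at 28.1.

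Among the methyltransferase genes, only Dnmt3a separated by genotype in covered bases. Dnmt3a, which encodes a de novo methyltransferase with a large role in blood stem cells, was covered over 16375 and 15728 bases in wild-type, against 13217 and 14564 bases in HDAC7-deficient cells (gene body chr12:3806007-3914443). Both HDAC7-deficient libraries were lower, at a ratio of 0.865 ± 0.0643, and they stayed lower when each library was divided by its own cover of chromosomes 1 to 13 (17267 and 14497 against 14091 and 14157). With peaks under 200 bp left out the groups overlapped, at a ratio of 0.808. Its peak counts, 105 and 86 against 95 and 89, overlapped.

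Dnmt3b, the gene of the second de novo enzyme (chr2:153649450-153687730), had 2852 and 4099 covered bases in wild-type, against 3522 and 2364 in HDAC7-deficient cells, and these overlapped widely, at a ratio of 0.847 ± 0.319. The number of its peaks was below the wild-type range in both HDAC7-deficient libraries, with 23 and 26 peaks against 21 and 13, a pattern that 10.8% of all protein-coding genes had. Dnmt1, the gene of the maintenance methyltransferase (chr9:20907209-20959888), had 4149 and 5046 covered bases in wild-type, against 5175 and 4077 in HDAC7-deficient cells. Each group held a high and a low library, and the ratio of 1.01 ± 0.219 left the genotypes level. With 29 and 22 against 37 and 29 peaks, its counts overlapped at a shared value of 29.

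Uhrf1 (chr17:56303321-56323486), whose product reads hemimethylated CpG and brings DNMT1 to it, had the highest ratio of covered bases of the 10 genes, 1.16 ± 0.191. Its window was covered over 4297 and 3733 bases in wild-type, against 4212 and 5079 bases in HDAC7-deficient cells, and the groups overlapped. The highest value came from HDAC7-deficient replicate 2, the library with raised cover of chromosome 17. Divided by each library's own cover of chromosome 17, an alternative added after seeing the data, the values were 4672 and 3627 against 4666 and 4422, at a ratio of 1.10. The peak counts, 26 and 20 against 24 and 22, had equal means. By its level Uhrf1 ranked high among genes of like length, at percentile 82.6, and Dnmt3a at 84.0, while Dnmt1 ranked low, between percentiles 7.40 and 36.7 in the 4 libraries, and Dnmt3b stood at 16.3.

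Tdg, the gene of the glycosylase that removes the oxidised bases downstream of 5-hmC, had few peaks and fewer in HDAC7-deficient cells. Its window (gene body chr10:82629828-82650799) was covered over 2422 and 2824 bases in wild-type, against 2143 and 2399 bases in HDAC7-deficient cells, with 18 and 19 peaks against 10 and 17. Both measures were lower in both HDAC7-deficient libraries, at 0.866 ± 0.116 for covered bases and 0.730 ± 0.269 for peaks, but HDAC7-deficient replicate 2 lay only just below the wild-type values. The ratio of covered bases was 0.976 over the gene body alone and 1.03 with 10 kb on each side, so it moved with the width of the flanks. At percentile 28.6 Tdg was among the less covered genes of its length.

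The 2 genes of the isocitrate dehydrogenases, IDH1 in the cytosol and IDH2 in mitochondria, separated by genotype in the first case alone. For Idh1, at chr1:65158616-65186500, peaks covered 4250 and 5369 bases in wild-type, against 4038 and 3358 bases in HDAC7-deficient cells. Each wild-type library had 22 Idh1 peaks, while the HDAC7-deficient libraries had 20 and 16. Both measures were lower in both HDAC7-deficient libraries, and the ratio of covered bases, 0.769 ± 0.161, was the lowest of the 10 genes. Over the gene body alone and with 10 kb on each side the covered bases of the groups overlapped, at ratios of 0.854 and 0.786. Idh2, at chr7:80094846-80115392, had 4392 and 4928 covered bases against 4899 and 3953, which overlapped, at a ratio of 0.950 ± 0.163. By covered share its level was the highest of the 10 for its length, at percentile 86.2, against 63.8 for Idh1. The percentile of Idh1 was between 35.6 and 82.6 by library. By peaks per 10 kb Idh2 stood at percentile 75.0 and Idh1 at 41.8, and Dnmt3a was highest, at 92.7. By covered share the 10 genes thus lay on both sides of genes of like length, with 5 of them under percentile 50 and a median of 47.0.

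**Figure D2:**
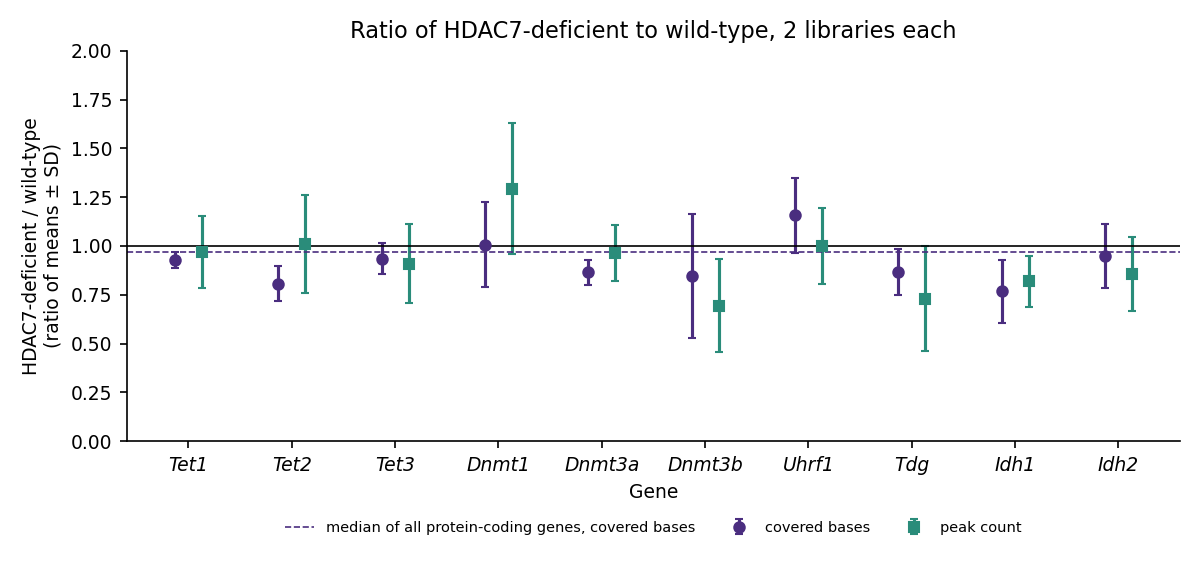
The ratio of the HDAC7-deficient to the wild-type mean for each gene (2 libraries per genotype), with covered bases as circles and peak counts as squares. Bars are the SD propagated from the replicates and the dashed line is the median ratio of covered bases over all protein-coding genes, 0.967. Idh1, Tet2 and Dnmt3b sit lowest in covered bases and Uhrf1 highest.

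Counted together, 5 of the 10 genes (Tet1, Tet2, Dnmt3a, Tdg and Idh1) had both HDAC7-deficient values of covered bases below both wild-type values, a pattern that 16.9% of all protein-coding genes had. None had more, against 9.96% of all genes. These shares of all genes, like those of regions below, include chromosomes 14 to 19, where HDAC7-deficient replicate 2 stood apart. Shares over chromosomes 1 to 13 alone were not computed. Among genes of like length, between 16.9% and 18.6% were lower and between 5.82% and 10.8% higher, depending on the gene. By the number of peaks 3 genes were lower (Dnmt3b, Tdg and Idh1) against 10.8% of all genes and 0 were higher against 11.9%. Both measures were lower for Tdg and Idh1, a pattern of 5.42% of all genes. The median ratio of covered bases was 0.898 over the 10 genes and 0.967 over all protein-coding genes, and that of peak counts 0.936 and 1. Summed over the 10 windows, peaks covered 71103 and 71830 bases in wild-type, against 65790 and 63575 bases in HDAC7-deficient cells, at a ratio of 0.905 ± 0.0229. Both HDAC7-deficient sums were below both wild-type sums, while the cover of all protein-coding windows, 9.33% and 10.6% against 9.09% and 10.5%, overlapped. This separation was lost when each library was divided by its own cover of chromosomes 1 to 13, where the sums were 74975 and 66209 in wild-type, against 70138 and 61798 in HDAC7-deficient cells. The count of 5 depended on the scale: with each library divided by its own cover of chromosomes 1 to 13 it was 3 (Dnmt3a, Tdg and Idh1, against 15% of all genes), and with peaks under 200 bp left out it was 2 (Tet2 and Idh1, against 15.3%). The gene body alone gave 4, which were Tet1, Tet2, Tet3 and Dnmt3a, against 15.9%.

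The 10 windows held 822 regions, most of them seen in a single library. A peak in all 4 libraries was found for 93 regions, or 11.3%, beside 11.9% of the 1251994 regions in windows of protein-coding genes. A total of 18 regions, or 2.19%, were gained and 24, or 2.92%, were lost, beside 2.82% and 2.49% of all such regions. Both shares were near those of all genes, and 465 of the regions, or 56.6%, had a peak in 1 library alone, beside 54.3% of all such regions.

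Tet1 held the most lost regions by number, 7 of its 136 (5.15%), beside 4 gained ones. Tet2 had 3 gained and 2 lost of 88 regions, Tet3 had 4 of each and Dnmt3a had 3 gained and 5 lost. Tdg and Idh1 had no gained and 2 lost regions each, of 28 and 32 regions, which gave larger lost shares (7.14% and 6.25%) than Tet1. Dnmt1 had 2 gained and no lost ones, and Uhrf1 had none of either kind. The lost regions of Tdg were at chr10:82632326-82632598 and chr10:82634398-82634612, both in its intron 1. Those of Idh1 were at chr1:65169030-65169170 and chr1:65169844-65170177, both in intron 3. At Dnmt3a the widest lost region, chr12:3902362-3902691 in intron 18, was covered over 330 and 199 bases in the wild-type libraries.

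**Figure D3:**
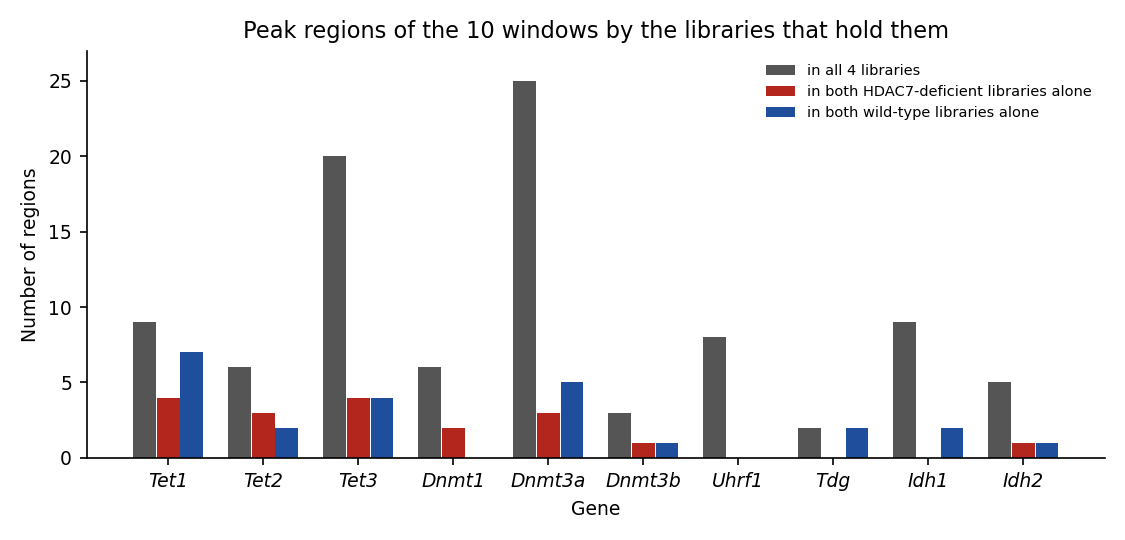
The number of peak regions in each gene window that were found in all 4 libraries (grey), in both HDAC7-deficient libraries alone (red) and in both wild-type libraries alone (blue). Dnmt3a has the most regions in all 4 libraries, 25, and Uhrf1 has 8 with no gained or lost region.

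At Tet2 the gained region in intron 8 was covered over 98 and 133 bases, while those in intron 2 were covered over 25 and 187 and over 60 and 140 bases. The lost regions of Tet2 were covered over 181 and 111 and over 161 and 375 bases in the wild-type libraries.

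The widest region present in all 4 libraries was in intron 1 of Idh2 (chr7:80110549-80111701), 1153 bp wide, with 14 CpG. Peaks covered 1008 and 948 bases of it in wild-type, against 993 and 539 bases in HDAC7-deficient cells, the last being the lowest. Dnmt3a had 25 regions in all 4 libraries, the widest of them 1026 bp wide in intron 1. At Uhrf1, 8 of 40 regions were in all 4 libraries, and Idh1 had 9 of 32.

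**Figure D4:**
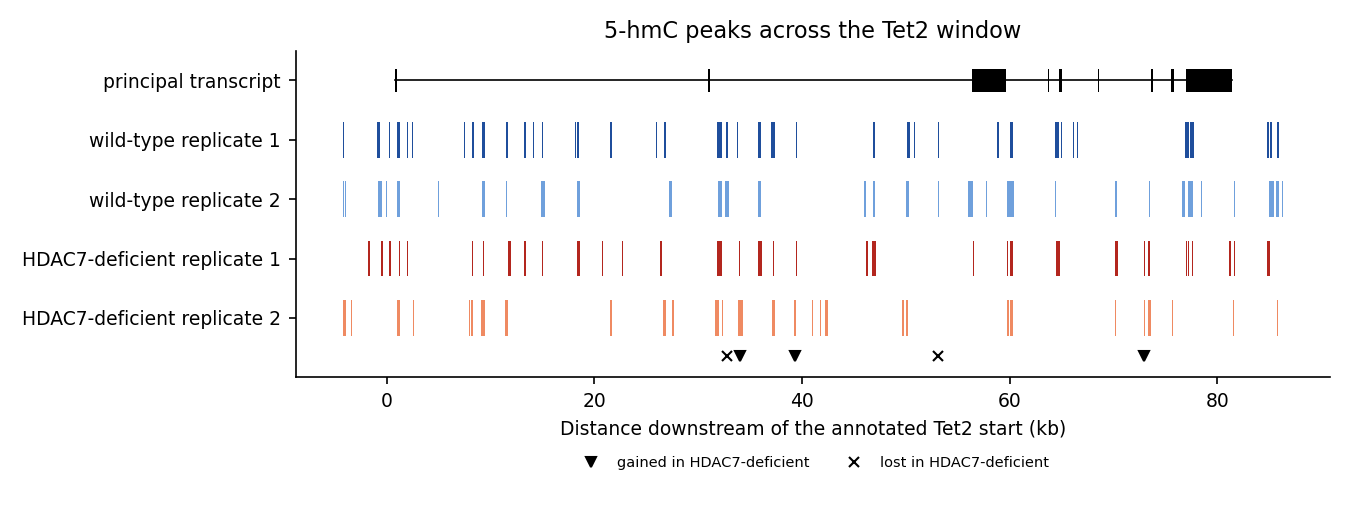
Peaks in the Tet2 window in each library, by distance downstream of the annotated start in kb, with the exons of the principal transcript as black boxes above. Triangles mark the 3 gained and crosses the 2 lost regions, which lie in introns of that transcript, the nearest 32750 bp and the farthest 72973 bp from the start.

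Along Tet2, as the map of its peaks shows, 6 of the 88 regions were found in all 4 libraries. One of these lay 1137 bp into the gene, with 200 and 303 covered bases in wild-type, against 174 and 276 in HDAC7-deficient cells. Another was in the last exon, with 368 and 292 covered bases in wild-type, against 133 and 18 in HDAC7-deficient cells. The HDAC7-deficient libraries were both lower over this exonic region (chr3:133467376-133467743), which was picked out after its values had been seen. The share of all regions found in all 4 libraries that separate in this way was not computed. Next to it, chr3:133467751-133468567 held 307 and 602 covered bases against 294 and 0. Within 1 kb of the annotated start of Tet2 the covered bases were 393 and 552 in wild-type, against 403 and 0 in HDAC7-deficient cells, so that the lack of peaks was seen in HDAC7-deficient replicate 2 alone.

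By position, introns held between 66.4% and 70.1% of the peaks of the 10 windows, exons between 8.46% and 11.8%, and promoters, taken from 1000 bp before to 100 bp after a start site, between 6.92% and 10.3%. The upstream flanks held between 6.07% and 7.44% and the downstream flanks between 4.87% and 7.44%. Introns held most of the peaks in every library. The share of window bases in each kind of feature is not given, so these shares do not measure a preference for introns.

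**Figure D5:**
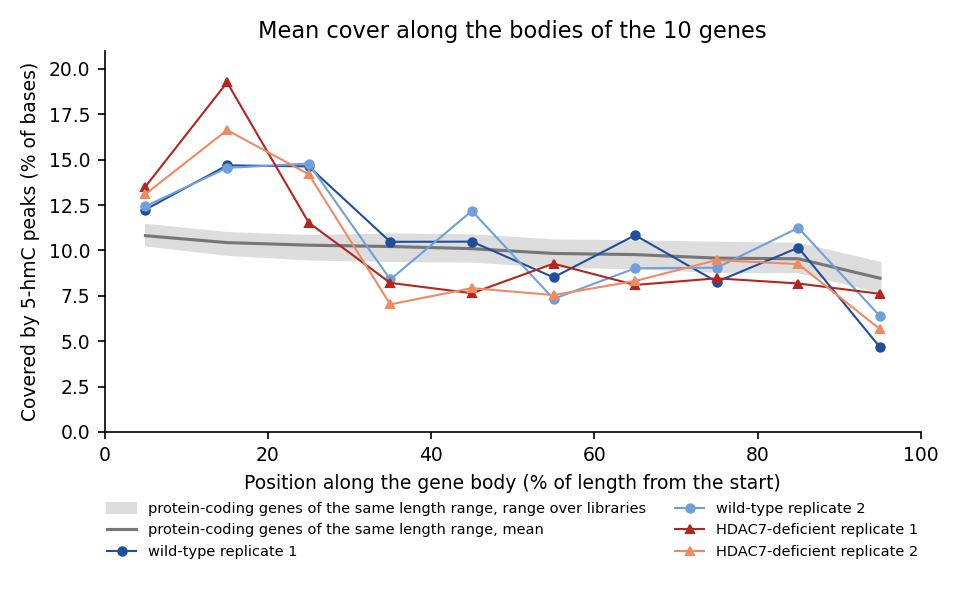
Mean share of bases covered by peaks along the gene bodies of the 10 genes, in 10 bins of equal length from the start, for each library (lines with points). The grey line and band are the mean and the range over libraries of the 7870 protein-coding genes within the same range of lengths. The mean of the 10 genes is between 14.5% and 19.3% in the second bin, where the mean of the 7870 genes is between 9.78% and 11.0%. The band does not show the spread between genes.

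On average over the 10 genes, though not in each of them, peaks covered more of the first part of the gene body. As the plot along the gene bodies shows, the first 30% was covered over 14.3% of its bases and the rest over 8.56%, a ratio of 1.67, against 1.09 for the 7870 protein-coding genes in the same range of lengths. The ratio was 1.53 in each of the wild-type libraries, against 1.80 and 1.86 with HDAC7 deleted. The genes in the same range of lengths gave 1.12 and 1.06 in wild-type, against 1.11 and 1.07 in HDAC7-deficient cells. The cut at 30% was not among the planned settings, and no other cut is given. How often other sets of genes separate by genotype in this way was not computed, so no difference is called. By gene, 7 of the 10 had more cover in the first 30%, beside 55.5% of those genes, led by Idh1 at a ratio of 5.66, Idh2 at 2.50, Uhrf1 at 2.28 and Tet1 at 2.11. The exceptions were Tet2 at 0.95, Tdg at 0.776 and Dnmt3b at 0.611.

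Close to the annotated starts the cover was also higher. The annotated start is the outer 5′ end of the GENCODE gene, which can lie far from a RefSeq promoter. For Tet1 it is chr10:62908996, with the RefSeq promoter at chr10:62887275-62887574. For Tet3 it is chr6:83459084, with the RefSeq promoter at chr6:83441629-83441928. Within 1 kb of the annotated start, the share of covered bases over the 10 genes was 1.48 and 1.63 times that of the rest of the windows in wild-type, against 1.79 and 1.45 times in HDAC7-deficient cells. All protein-coding genes gave 1.08, 1.07, 1.10 and 0.959 for the same libraries. Averaged over the libraries the ratio of the 10 genes was 1.59, and 1.15 over the starts of all protein-coding transcripts. The value of all genes for that wider set of starts was not computed. Within 1 kb of the annotated start there were peak bases in all 4 libraries for 7 of the 10 genes, beside 40.5% of all protein-coding genes. Tdg had none in any library, which held for 9.68% of all protein-coding genes. Uhrf1 varied most, with 360 and 341 bases in wild-type, against 73 and 890 in HDAC7-deficient cells, and Dnmt1 had 294 and 308 bases in the 2 replicate 1 libraries and 0 in the others.

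Of the 16 RefSeq promoters of the 10 genes, each from 250 bases before to 50 after a start, 8 held a peak base in at least 1 library, beside 48.5% of all promoters. A single one, at Idh1, held peak bases in all 4 libraries, beside 5.33% of all promoters. It was covered over 81 and 162 of its 300 bases in wild-type, against 203 and 131 in HDAC7-deficient cells. The stretches of 3 promoters that lie outside annotated exons are shown on the strand of the gene, with CpG in capitals, since they are where the mark met a promoter of the pathway in 1, 3 or all 4 libraries.
Idh1 promoter, reverse strand, chr1:65186501-65186682: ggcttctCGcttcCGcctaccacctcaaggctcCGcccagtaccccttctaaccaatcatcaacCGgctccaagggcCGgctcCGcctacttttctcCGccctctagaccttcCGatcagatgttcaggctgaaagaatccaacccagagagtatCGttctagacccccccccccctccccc
Uhrf1 promoter, forward strand, chr17:56303087-56303320: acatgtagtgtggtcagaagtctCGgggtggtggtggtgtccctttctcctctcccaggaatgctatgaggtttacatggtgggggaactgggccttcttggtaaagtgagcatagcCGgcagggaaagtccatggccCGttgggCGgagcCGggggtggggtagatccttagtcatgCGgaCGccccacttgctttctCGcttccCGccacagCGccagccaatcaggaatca
Tet3 promoter, reverse strand, chr6:83441679-83441754: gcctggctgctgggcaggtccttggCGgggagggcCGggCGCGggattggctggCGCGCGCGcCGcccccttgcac
In these stretches the Idh1 promoter was covered over 34 and 162 bases in wild-type, against 156 and 131 in HDAC7-deficient cells, with 9 CpG in 182 bases. For Uhrf1 the values were 146 and 140 bases in wild-type, against 0 and 22 in HDAC7-deficient cells. The groups did not overlap in this one stretch, and the share of all promoters that separate in this way was not computed. The other RefSeq promoter of Uhrf1 (chr17:56304063-56304362) was covered over 0 and 0 bases in wild-type, against 0 and 212 in HDAC7-deficient cells. The Uhrf1 window as a whole had its highest value in HDAC7-deficient replicate 2. The Tet3 stretch was touched over 8 bases in wild-type replicate 1 alone.

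MEF2 factors recruit class IIa histone deacetylases to DNA, and PU.1 is a transcription factor of myeloid and early B cells. The MEF2 consensus, a motif of 10 letters matched on both strands, was in 0 of the 16 promoters, beside 3.19% of all promoters. The PU.1 core GAGGAA, also on both strands, was in 5 of the 16 (1 of Dnmt1, with 4 matches, 2 of Dnmt3a, 1 of Dnmt3b and 1 of Idh1), beside 28.3% of all. The 2 Dnmt3a promoters overlap each other, and neither motif was found in the RefSeq promoter of Tet2. The study reports recruitment of HDAC7 to the Tet2 promoter in pro-B cells and describes MEF2 binding sites there. The scan read only the short RefSeq windows for exact matches to the consensus. Whether Tet2 has MEF2 sites outside its window, or sites that depart from the consensus, was not tested.

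The bases under the peaks were much like those around them. Over the 10 windows CpG occurred between 1.32 and 1.61 times per 100 bp in peaks and between 1.35 and 1.38 times outside, and between 69.6% and 73.3% of the peaks held at least 1 CpG. The ratio of inside to outside was 1.19 and 0.956 in wild-type, against 1.08 and 1.06 in HDAC7-deficient cells, so it differed more between the wild-type libraries than between the genotypes. Soft-masked sequence made up between 27.5% and 29.7% of peak bases and between 27.3% and 27.5% of the others. G and C made up between 48.2% and 48.8% of peak bases and between 46.9% and 47.0% of the others, slightly more in peaks in each library. By gene, the CpG ratio was below 1 in each library for Tdg (0.655 to 0.806). It was above 1 in each for Tet1 and Idh1 (1.02 to 1.64), and the other genes had values on both sides.

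The other genes of the pathway were taken from a list of 39, all found in the annotation, that covers readers of methylated CpG, base excision repair, one-carbon metabolism and partners of the TET and DNMT proteins. By covered bases 5 were higher (Mbd2, Zfp57, Polb, Lig3 and Hmces, beside 9.96% of all genes), 6 were lower (Usp7, Mbd4, Zbtb38, Gadd45a, Gadd45g and Cxxc5, beside 16.9%) and 28 overlapped. Of these Mbd2 and Cxxc5 lie on chromosome 18, Zfp57 on chromosome 17 and Usp7 on chromosome 16, within the range where HDAC7-deficient replicate 2 stood apart. The median ratio was 0.964, near the 0.967 of all protein-coding genes. By number of peaks 4 were higher and 4 lower, beside 11.9% and 10.8% of all genes. Both measures were higher in both HDAC7-deficient libraries for Zfp57 and Lig3, beside 4.11% of all genes, and for no gene of the list were both lower, beside 5.42%. Zfp57, which encodes a zinc finger protein that protects imprinted methylation, was covered over 1020 and 1321 bases in wild-type, against 1522 and 2055 in HDAC7-deficient cells. The highest value is that of the library with raised cover of its chromosome. Lig3, the gene of a DNA ligase of base excision repair, had 2131 and 2157 covered bases in wild-type, against 2504 and 4706 in HDAC7-deficient cells, most of the difference being in HDAC7-deficient replicate 2.

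Several windows reach into other genes, since the flanks were counted whatever lies in them. The Dnmt1 window includes S1pr2, the Idh1 window Pikfyve, the Tdg window Glt8d2, the Tet3 window Bola3, the Uhrf1 window Arrdc5 and Kdm4b, and the Idh2 window Zfp710. A peak in such a stretch was counted for the pathway gene, and cover in the flanks cannot be assigned to one gene or the other.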

How the data were processed

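Peak lists of 4 hMeDIP-seq libraries were analysed, 2 wild-type and 2 HDAC7-deficient, grouped by GEO's labels. The 4 input libraries were not analysed here. The deposited files hold the chromosome, start and end of each peak, which the authors called in each library separately with MACS2. The submitters' processing notes list Trim Galore 0.4.2, cutadapt 1.6, Bowtie2, deepTools and the mm10 build, while the methods of the study name bwa as the aligner. Input peaks were removed according to the methods. Whether this was done before deposit is not stated, so some peaks may be input signal. The signal was scaled per library before calling, so cover depends on that scaling and on the limit of the caller. The lists used here give no counts, so the depth is unknown.

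Positions were read with pandas 2.3.3 and counted with NumPy 2.4.6 under Python 3.11.15, sequences with pysam 0.24.0 and samtools 1.23.1, and figures drawn with matplotlib 3.10.9. Peaks and covered bases were counted over gene bodies of GENCODE M21 with 5 kb on each side, and a peak that met a window by 1 bp was counted. The principal transcript is the longest with the principal tag. Like-length genes had lengths within 25% of the gene. The SD of a ratio of means was propagated from the 2 libraries of each genotype. Promoter and region sequences came from RefSeq tables and the genome sequence of GRCm38.p6, and all 10 genes were matched by symbol. Interval code was tested on simulated peaks.

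All 10 genes were named. Of the other pathway genes, those were named by rule whose covered bases and peak counts both separated in one direction, and any others were named after their values were seen. By rule 3 promoters with a peak base in at least 1 library were printed, 1 per gene, those in most libraries first and then in the order of the list of genes, and regions for Tet2 first and then by width. The Tet2 promoter was added after its values were seen. The widest gained region is not reported here. The genes, lists and tests were chosen with earlier results of these data known. Replicates may differ technically alone, since the sources do not tie libraries to mice. Alternatives were other flanks, wider peaks, merged peaks, other overlap rules, scaling to chromosomes 1 to 13 or to the gene's own chromosome, a replicate block and leaving out each library.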

Additional observations from a re-analysis of the deposited data

How the results depend on the processing

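The summed cover of the 10 windows in HDAC7-deficient over wild-type cells was 0.905, and it was 0.934 after scaling to chromosomes 1 to 13 and 0.928 after scaling to the own chromosome of each gene, an alternative added after seeing the data. Under both scalings the sums of the groups overlapped (after scaling to the own chromosome 75347 and 66363 against 70535 and 60980). The ratio stayed between 0.889 and 0.921 when each library was left out. With the replicate block, which compares libraries of the same number, it was 0.905 and the number of lower genes was 5, beside 28.6% of all genes in place of 16.9%. These 2 pairs share only a number, so the block does not make the design paired. The ratio of summed peak counts, 0.941, was between 0.869 and 1.03 when each library was left out, and it passed 1 without wild-type replicate 1 and without HDAC7-deficient replicate 2. The number of genes with lower cover, 5, was 3 under either scaling (beside 15% and 16.8% of all genes), 2 with peaks of at least 200 bp alone (beside 15.3%), and between 6 and 8 when each library was left out (beside 27% to 45.4%), where fewer libraries have to separate. The number with higher cover, 0, was 2 over the gene body alone (Dnmt1 and Uhrf1, beside 10.3% of all genes), 1 with 10 kb on each side (Uhrf1, beside 9.21%), 2 with peaks of at least 200 bp (Uhrf1 and Idh2, beside 7.42%), and between 0 and 1 when each library was left out (beside 18% to 34.2%). The number of gained regions, 18, was 10 with peaks of at least 200 bp, and that of lost regions, 24, was 11. Leaving out each library gave between 35 and 136 gained and between 39 and 172 lost regions, which the smaller number of libraries brings with it. The ratio of cover near the start to that of the rest, 1.59 on average over the libraries, was 1.31 within 500 bp, 1.15 over the starts of all protein-coding transcripts, and 1.89 with peaks of at least 200 bp, and it was between 1.52 and 1.63 when each library was left out. The median percentile among genes of like length, 47.0, was between 44.6 and 54.0 when each library was left out and between 44.3 and 47.6 under the other alternatives. By gene, the ratios of Tet1, Tet2, Tet3, Dnmt3a and Idh1 were below 1 and that of Uhrf1 was above 1 in all 11 alternatives (that of Tet2 between 0.653 and 0.873). These alternatives reuse the same 4 libraries, and the share of all genes that stay on one side was not computed. The median ratio of all protein-coding genes was itself 0.967. After either scaling the groups of Tet1, Tet2, Tet3 and Uhrf1 overlapped, and those of Dnmt3a and Idh1 did not. The ratio of Tdg was above 1 with 10 kb on each side alone. Dnmt1 crossed 1 in 4 of the 11, and Dnmt3b and Idh2 crossed it in 3 each. With positions alone, the depth behind a peak and a change in its height could not be seen.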
